A study of Mus musculus with 5 samples.

Results

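Homologous recombination and Fanconi anaemia repair were followed through 35 genes chosen by name: genes of end resection, of strand pairing and its mediators, of the Fanconi pathway, and of junction dissolution and resolution. All 35 were found among the 24594 genes of the table, and all 35 passed the filter on low values (a mean of at least 10). RNA sequencing covered 5 libraries of mouse retinal cells. Per the labels, pups were electroporated in vivo at postnatal day 0 with a CAG-GFP plasmid (control, 2 libraries) or a CAG-Zfp292 plasmid (Zfp292-OE, 3 libraries), retinas were taken 4 days later, and GFP-positive cells, called RPCs there, were sorted. CAG is a promoter active in most cell types. The labels do not give strain, litter or the species of the Zfp292 insert. They also leave unsaid whether each library had its own animals, and the p-values then reflect only how much these samples spread, possibly for technical reasons.

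The labels' own check did not separate the groups. The normalised read count of Zfp292 was 13288 and 14756 in control. It was 14631, 13197 and 15534 in the libraries labelled Zfp292-OE (log2 fold change 0.04, SE 0.14, limma adjusted p = 0.87). Each direction given here is therefore that of the labels, and the 3 libraries labelled Zfp292-OE are called the labelled libraries. Between 103096224 and 137683716 reads were assigned to genes per library, and no member had fewer than 89 reads in any library.

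Homologous recombination copes with a broken or stalled chromosome by copying from the sister chromatid, and is therefore used mainly in S and G2 phase. An end is first cut back to single-stranded DNA, BRCA1, PALB2 and BRCA2 prepare that strand, it pairs with the sister, and the joined molecules are taken apart again. The Fanconi pathway senses crosslinked DNA through a core ubiquitin ligase complex, which marks FANCD2 and FANCI, and hands the break it makes to recombination. In a newborn retina the cells that still replicate DNA are the progenitors, while rods and bipolar cells have left the cycle.

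RefSeq promoter windows (GRCm38.p6) were matched for 28 of the 35 genes, each running from 250 bases before its own start to 50 after it. Start here and in the next paragraph means that of the window, which need not be the edge of the gene span given elsewhere. The windows of Brca2, Fancc, Fancg, Fancm, Rad52 and Slx4 lie wholly inside the gene span. So does a window each of Rad51c and Rmi1. Rad51b, Rad51c, Rad54l and Rmi1 had more than 1 window, and a match in any of them counted. The E2F motif was searched as TTTCCCGC, TTTCGCGC, TTTGCCGC and TTTGGCGC on both strands, because E2F factors bind near many S-phase genes. It stood in the windows of 5 members (17.9%), against 2.61% of 27025 genes with a window and 4.38% of the tested genes. The members were Bard1, Brca2, Fancg, Rad51c and Rmi1. Among the 11 members with a window that were called higher in the labelled libraries, 1 held it (Bard1), and among the other 17 it stood in 4. The matches that lie wholly upstream of that start are shown because they fall in genes that differed to unlike degrees. Bard1 was among those called higher, and Fancg and Brca2 were among those not called. The Bard1 stretch lies outside the gene span, while the Brca2 and Fancg stretches lie inside it. Capitals mark the E2F match.
Bard1, chr1:71103148-71103207, minus strand: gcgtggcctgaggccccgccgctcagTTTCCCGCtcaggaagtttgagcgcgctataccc
Brca2, chr5:150522427-150522486, plus strand: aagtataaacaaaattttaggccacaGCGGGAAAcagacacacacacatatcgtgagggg
Fancg, chr4:43010320-43010379, minus strand: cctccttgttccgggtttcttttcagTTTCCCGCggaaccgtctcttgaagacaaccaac

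CCAAT boxes (CCAAT) stood in 16 of the 28 windows (57.1%, against 41.1% of all genes and 42.8% of tested genes) and GC boxes (GGGCGG) in 17 (60.7%, against 38.2% and 64.3%). The CHR element (TTTGAA or TTCGAA), known from G2/M genes, stood in 5 windows (17.9%, against 21.7% and 16.6%). It lay just after the start of the window in Fignl1 (base 21), Eme1 (base 22) and Gen1 (base 25). These 3 genes are among the 4 members with the largest fold change and were read together after that was seen. Their window starts lie inside the gene spans, further in for Eme1 and Gen1 than for Fignl1. The other 2 members with the element were Bard1, at base -242 (before the start), and Rad51b, at base 8. For comparison, the 120 bases before the start are given for 3 genes that were among the most raised and for Fance, the only member called lower, with CCAAT and GC boxes on either strand in capitals. The printed Brip1 stretch holds 3 CCAAT boxes, 1 of which overlaps a GC box, while the printed Fignl1 and Fance stretches hold GC boxes and no CCAAT box.
Fignl1, chr11:11808963-11809082, minus strand: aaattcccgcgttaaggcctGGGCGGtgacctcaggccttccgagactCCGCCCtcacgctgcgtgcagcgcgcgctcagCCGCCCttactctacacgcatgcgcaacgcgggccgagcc
Rad51ap1, chr6:126939588-126939707, minus strand: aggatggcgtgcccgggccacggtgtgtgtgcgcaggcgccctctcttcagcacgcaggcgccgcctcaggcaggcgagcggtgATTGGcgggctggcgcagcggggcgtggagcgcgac
Brip1, chr11:86201194-86201313, minus strand: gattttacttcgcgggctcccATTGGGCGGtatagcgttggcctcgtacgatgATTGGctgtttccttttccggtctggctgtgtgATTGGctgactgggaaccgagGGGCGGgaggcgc
Fance, chr17:28313410-28313529, plus strand: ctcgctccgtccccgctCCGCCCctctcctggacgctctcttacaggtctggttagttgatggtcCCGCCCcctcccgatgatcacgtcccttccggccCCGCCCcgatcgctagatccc
A match is a description of letters and no evidence of a bound factor.

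Of the 35 genes, 17 were called higher in the labelled libraries, 1 lower and 17 neither. A call means an adjusted p below 0.05 in limma on log2(value + 1), adjusted over all 16316 tested genes. Of those genes 10% were called higher and 7.38% lower, 17.4% in all. The choice of members took in Fignl1 as strongly raised in this same comparison, so calls, fold changes and intervals of members are a description and no test of them is offered. The median log2 fold change of the 35 was 0.91, beside -0.06 over all tested genes, and it was positive for 30 and negative for 5. Every library of one group lay above every library of the other for 26 members (49.9% of tested genes), 24 of them higher in the labelled libraries (24.3% of tested genes) and 2 lower (25.7%). No member was called when either control library was left out, a fit in which limma called 1 gene of all and the lone control was assumed to vary like the other group. In those fits 18 members (without control library 1) and 19 (without control library 2) had an unadjusted p below 0.05, and the median log2 fold change was 0.91 and 0.93. Without labelled library 1 the calls of Bard1, Fancd2, Fancl, Rad54l and Xrcc2 were lost, and without labelled library 2 those of Fancd2, Rad54l and Xrcc2. Leaving out labelled library 3 lost the call of Xrcc2 and added Blm, Brca2 and Rad51b as called higher.

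**Figure D1:**
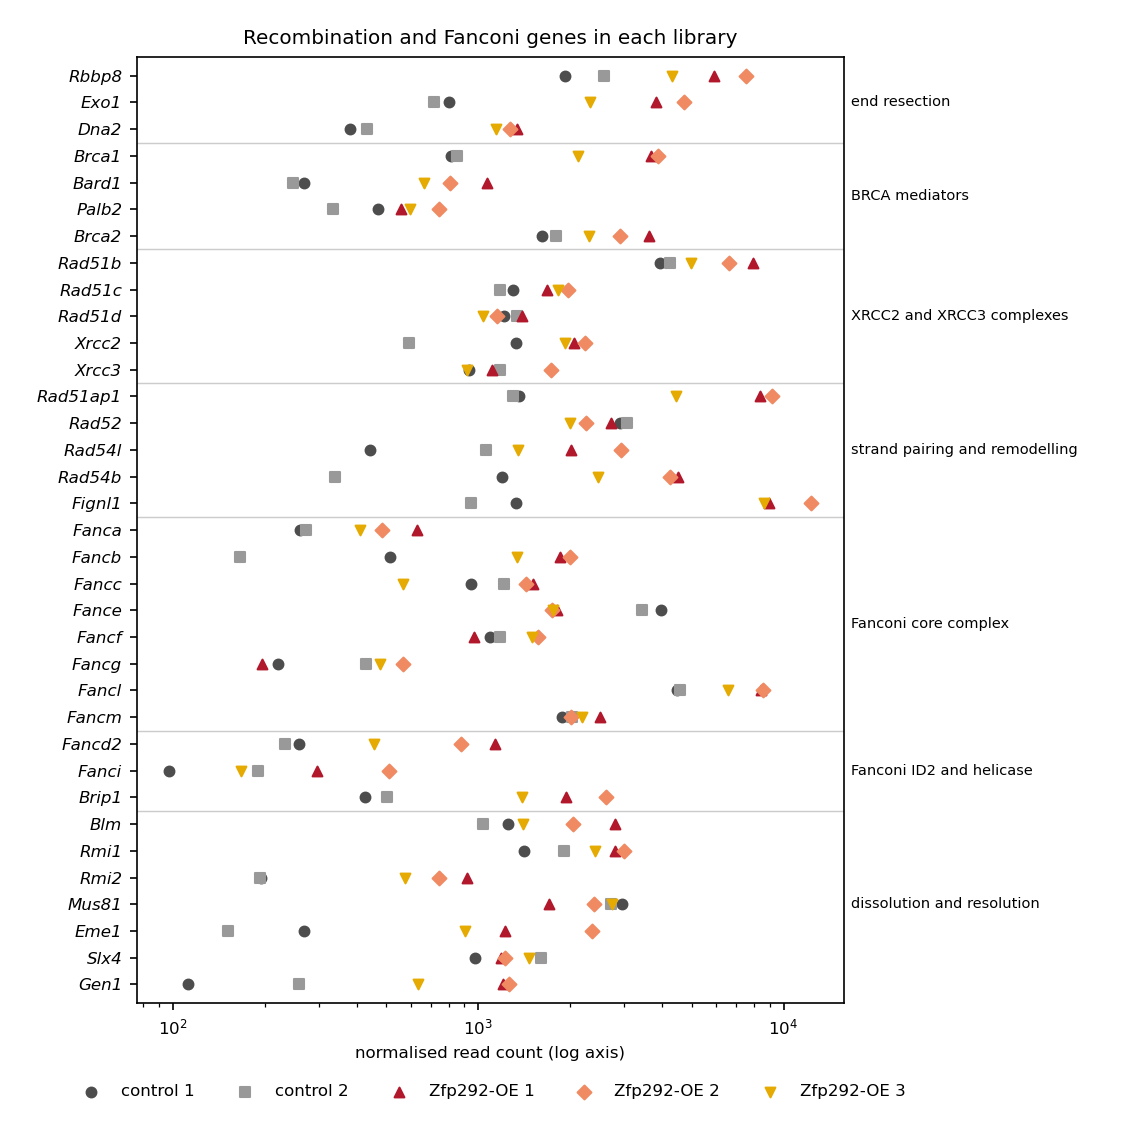
Normalised read count of each of the 35 genes (log axis) in 2 control libraries (grey) and 3 libraries labelled Zfp292-OE (coloured), grouped by role, each point 1 library. Fignl1 lies furthest from its controls, Fance is the gene with all labelled libraries far under the controls, and library 3 is the lowest labelled library for all 17 genes called higher.

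**Figure D2:**
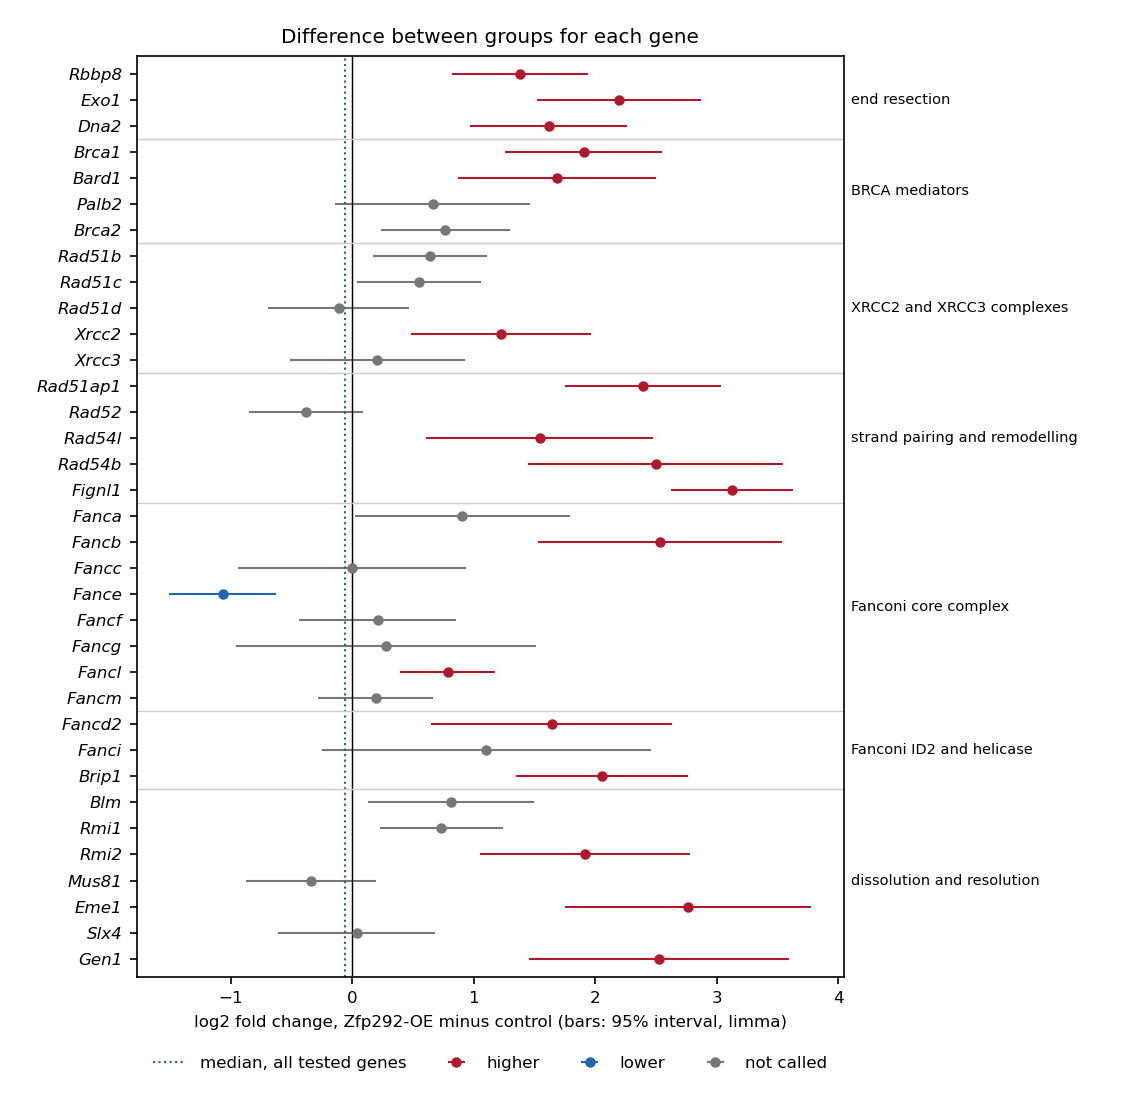
Difference between the groups for each gene on the log2 scale, with the 95% interval from limma as the bar and the median of all tested genes (-0.06) as the dotted line. Red marks the 17 genes called higher, blue the 1 called lower (Fance), grey the 17 not called, and the intervals describe genes chosen with this comparison in view.

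Resection genes were raised throughout, with all 3 called higher. Values here and in what follows are given in the order control libraries 1 and 2, then labelled libraries 1, 2 and 3. Rbbp8 encodes CtIP, which starts resection together with the MRE11 nuclease. It had 1918 and 2575, then 5938, 7528 and 4323, a 2.64-fold higher mean. Exo1, the exonuclease that extends the single strand, had 802 and 715, then 3811, 4738 and 2321. The control mean of Exo1 was 758 ± 61.8 (SD, n = 2), the labelled mean was 3623 ± 1219 (SD, n = 3), and they differed by 2.20 on the log2 scale (SE 0.30). Dna2, a nuclease and helicase that works in parallel with EXO1, had 381 and 431, then 1335, 1268 and 1143. The labelled libraries were nearly level for Dna2, while they ranged over 2.04-fold for Exo1.

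Of the 4 mediators, Brca1 and Bard1 were called higher and Brca2 and Palb2 were not called. Brca1 (chr11:101488761-101551955) had 812 and 851, then 3689.6, 3876 and 2121. The log2 fold change was 1.91 (SE 0.29). Bard1 encodes the partner with which BRCA1 forms a ubiquitin ligase. It had 268 and 247, then 1070.2, 810.2 and 664. Every labelled library was above both controls for the 2 genes, and library 3 was the lowest of the labelled. Brca2 (chr5:150522297-150570147), which acts on the resected single strand, had 1623 and 1792, then 3626, 2922 and 2299.98. Its log2 fold change was 0.77 (95% interval 0.23 to 1.30), and it was not called. Palb2, which bridges BRCA1 and BRCA2, had 471 and 335, then 559, 744 and 599, with a log2 fold change of 0.66 (interval -0.14 to 1.47). The groups did not overlap for either gene.

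RAD51B, RAD51C, RAD51D and XRCC2 form a complex that serves recombination, and RAD51C and XRCC3 form another. Of the 5, 1 was called higher, and their median difference was 0.55 on the log2 scale. Xrcc2 was the one called, with 1329 and 591, then 2066, 2238 and 1927. Its controls differed 2.25-fold, and the log2 fold change was 0.64 without control library 2 and 1.81 without control library 1. Rad51b had 3939 and 4252, then 7939, 6629.8 and 4969, and Rad51c had 1301 and 1179.8, then 1685, 1961 and 1819. Neither was called, although no labelled library of either gene fell within the range of the controls. Rad51d had 1216 and 1343, then 1387, 1150.4 and 1037, and Xrcc3 had 929.6 and 1182, then 1111, 1731 and 922. The groups overlapped for both, and their intervals ran from -0.69 to 0.47 and from -0.51 to 0.92.

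Among the genes of strand pairing and remodelling, 4 of 5 were called higher, and this role held the largest change of all. Fignl1 (chr11:11800288-11808983) encodes an AAA ATPase that acts in recombination. It had 1334 and 950.3, then 8932, 12347 and 8611. The control mean was 1142 ± 271 (SD, n = 2) and the labelled mean 9963 ± 2071 (SD, n = 3). Their ratio was 8.72, and the difference on the log2 scale 3.12 (SE 0.23). It ranked first of the 35 members and 150th of the 16316 tested genes by log2 fold change. Rad51ap1, which promotes pairing of the broken strand with its template, had 1360.1 and 1305, then 8379, 9169 and 4459. Its control libraries lay within 1.04-fold of each other, and its log2 fold change was 2.39 (SE 0.29).

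The SNF2 family translocases Rad54l and Rad54b, which move along DNA during strand pairing, were both called higher on controls that disagreed. Rad54l had 442 and 1057, then 2006, 2942 and 1345. Rad54b had 1194 and 340.4, then 4501, 4258 and 2459. Control library 1 was the lower one for Rad54l and the higher one for Rad54b. Leaving out a control moved the log2 fold change of Rad54l between 0.92 and 2.17 and that of Rad54b between 1.60 and 3.40. Rad54b shares 39.1% of its exon bases with Fsbp on the same strand (GENCODE M21), so reads of the 2 genes may be mixed. Rad52, which anneals single strands, had 2921 and 3078, then 2731, 2246 and 1999.7. All its labelled libraries were under both controls, its log2 fold change was -0.38 (interval -0.85 to 0.09), and it was not called.

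The Fanconi core complex was the most mixed role: of 8 genes 2 were called higher, 1 lower and 5 neither, and its median difference of 0.25 (log2) was the smallest of the 7 roles. Fancb (chrX:164980480-164997272), a subunit of the part of the complex that holds the ligase, had 514 and 166, then 1846, 1992 and 1336. The controls differed 3.09-fold, and the log2 fold change of 2.53 was 1.72 without control library 2 and 3.35 without control library 1. Fancl, the ubiquitin ligase subunit, had 4480.4 and 4568, then 8454, 8579 and 6567. Its fold was modest (1.74), and its controls were nearly level, at a ratio of 0.981. Fancl shares 17.0% of its exon bases with Vrk2 on the opposite strand, and the sources used here do not say whether counting used strand.

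Fance (chr17:28313530-28326574), which links the core complex to FANCD2, went the other way. It had 3978 and 3443, then 1805, 1739 and 1758. The control mean was 3711 ± 378 (SD, n = 2) and the labelled mean 1767 ± 34 (SD, n = 3). Their ratio was 0.476, and the difference on the log2 scale -1.07 (SE 0.20). The labelled libraries lay within 1.04-fold of each other, the narrowest spread among the 35 genes. Fancc and Fancf encode the subunits that bind FANCE. Fancc had 946 and 1211, then 1509, 1434 and 565, and Fancf had 1093 and 1176, then 965, 1565 and 1497. The groups overlapped for both. For Fancc library 3 alone was under the controls, and its log2 fold change was -0.0013 with all libraries and 0.46 without library 3.

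Of the remaining core genes, Fanca had 262 and 273, then 632, 485 and 410.2, with no overlap, and was not called (log2 fold change 0.91, interval 0.02 to 1.79). Fancg, which binds FANCA, had 221 and 429, then 195, 565 and 475, an interval of -0.95 to 1.51, and its log2 fold change was -0.20 without control library 1. Fancm, a translocase that anchors the complex on DNA, had 1877 and 2022, then 2507, 2013 and 2189. The groups overlapped for Fancg and Fancm.

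FANCD2 and FANCI form the clamp that the core complex marks with ubiquitin. Fancd2 had 258 and 233, then 1135, 879.7 and 454, and was called higher with a ratio of 3.35. Fanci, the gene with the lowest counts of the 35, had 97 and 190.2, then 295, 510.3 and 167. Fanci shares 13.4% of its exon bases with Polg on the opposite strand, whose mean value was 1848. Reads of both genes may be mixed if counting ignored strand. Library 3 lay under control library 2 for Fanci, and its interval ran from -0.25 to 2.46, so a rise like that of Fancd2 and no rise both lie within it. Brip1, the helicase also called FANCJ that binds BRCA1, had 425 and 502, then 1942, 2631 and 1395, a log2 fold change of 2.06 (SE 0.32).

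Genes that take joined molecules apart differed by partner. BLM, a helicase, dissolves linked junctions with RMI1 and RMI2. Blm had 1248 and 1037, then 2812, 2040.4 and 1403, and Rmi1 had 1409 and 1915, then 2810.01, 2996 and 2421. Neither was called, with log2 fold changes of 0.82 (interval 0.13 to 1.50) and 0.73 (interval 0.23 to 1.24), though no labelled library fell within the control range. Rmi2 had 194 and 193, then 922, 744 and 574, and was called higher at a ratio of 3.86.

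MUS81 and EME1 together form a nuclease that cuts junctions, SLX4 is its scaffold, and GEN1 is a nuclease acting alone. Eme1 (chr11:94644972-94653836) had 268 and 152, then 1226, 2351 and 908, a log2 fold change of 2.77 (SE 0.45). Gen1 had 112 and 259, then 1201, 1258 and 636, a log2 fold change of 2.53 (SE 0.48). It was 1.93 without control library 1 and 3.13 without control library 2. Mus81 had 2947 and 2718, then 1706, 2397 and 2736, and Slx4 had 978 and 1610.3, then 1188, 1226 and 1465. The groups overlapped for Mus81 and Slx4, whose intervals were -0.88 to 0.20 and -0.61 to 0.68.

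Ratios between partner genes were taken within each library on values per kilobase of exon. They restate the values above pair by pair and are no separate evidence of a split. Eme1 stood at 0.0769 and 0.0472 of Mus81 in the controls and at 0.608, 0.829 and 0.281 in the labelled libraries. Fancb stood at 0.0878 and 0.0328 of Fance, then at 0.694, 0.778 and 0.516. Both ratios were higher in every labelled library than in either control. Rmi2 to Rmi1 went from 0.217 and 0.158 to 0.516, 0.391 and 0.374, and Xrcc2 to Rad51d from 1.06 and 0.427 to 1.44, 1.89 and 1.80. Brca1 stood at 1.04 and 1.53 of Palb2, then at 3.97, 3.13 and 2.13, also without overlap.

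Fancb to Fancl, both called higher, was 0.105 and 0.0333, then 0.199, 0.212 and 0.186, also without overlap, and Gen1 to Mus81 was 0.0149 and 0.0374, then 0.276, 0.206 and 0.0912. The ratios of 3 other pairs overlapped between the groups. Brca1 to Bard1 was 2.61 and 2.96, then 2.97, 4.12 and 2.75. Fancd2 to Fanci was 2.40 and 1.10, then 3.46, 1.55 and 2.44, and Rad51c to Xrcc3 was 0.788 and 0.562, then 0.853, 0.638 and 1.11. All pairs were taken after the fold changes had been seen. Known complexes were the ground for each pair except Gen1 to Mus81, since GEN1 acts alone.

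**Figure D3:**
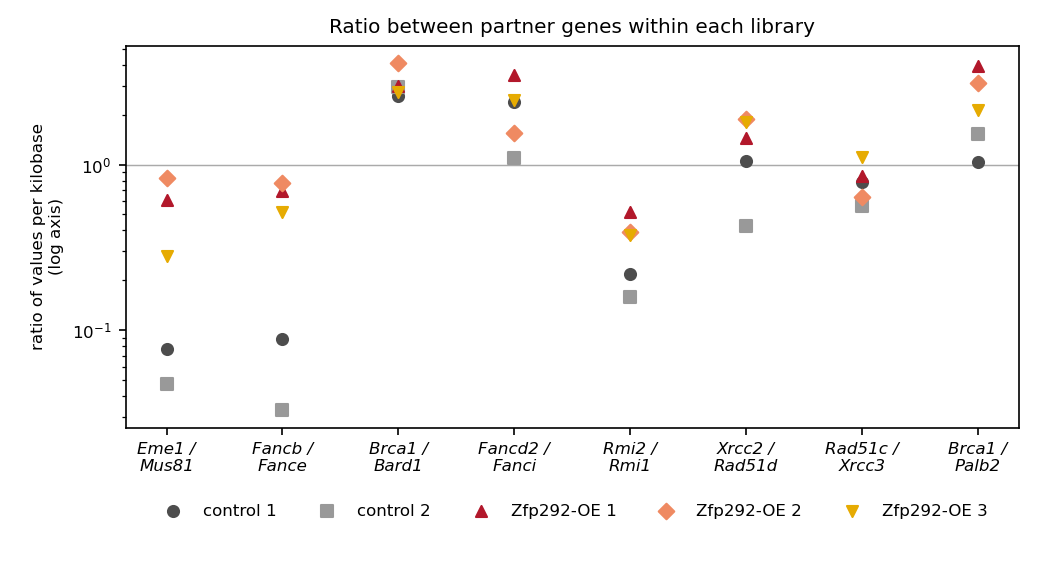
Ratio of the values per kilobase of 2 partner genes (log axis) within each library, 2 controls in grey and 3 libraries labelled Zfp292-OE in colour. Eme1 to Mus81 and Fancb to Fance reach at most 0.0878 in the controls and at least 0.281 in the labelled libraries, while Brca1 to Bard1, Fancd2 to Fanci and Rad51c to Xrcc3 overlap.

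On the scale of values per kilobase of exon, the order of the genes changed between the groups. In control the highest mean levels per kilobase were those of Fance (1832), Rad52 (1772), Fancl (1661) and Mus81 (1370.3). In the labelled libraries they were those of Rad51ap1 (3281), Fignl1 (3203) and Fancl (2888). Fignl1 moved from rank 11 to rank 2 and Fance from rank 1 to rank 8. The lowest level in both groups was that of Fanci, at 28.9 and 65.3.

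The 2 control libraries agreed within 1.5-fold for 26 members and differed over 2-fold for 5, namely Xrcc2, Rad54l, Rad54b, Fancb and Gen1 (14.3%, against 15.5% of tested genes). Xrcc2, Rad54b and Fancb were higher in control library 1, and Rad54l and Gen1 in control library 2. Among the labelled libraries, library 3 was the lowest for all 17 genes called higher and for 27 of the 35, and library 2 was the highest for 12 of the 17 and library 1 for 5.

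Genes of the cell cycle were counted beside the members. All 26 were called higher (10% of tested genes were), with a median log2 fold change of 2.22, and 0 were called without either control library. Their mean on the log2 scale relative to control was 2.25, 2.57 and 1.75 in labelled libraries 1, 2 and 3, and that of the 35 members was 1.20, 1.34 and 0.81. Both means were highest in library 2 and lowest in library 3. The median of the members was instead highest in library 1 (1.22, 0.92 and 0.62), and Mcm4, Mcm5, Mcm7 and E2f1 of the cell cycle genes were lowest in library 1. The proliferation marker Mki67 had 3298 and 4406, then 19448, 23145 and 12276. At the same time 10 of 10 rod markers were called lower, with summed values of 714667 and 582964 in control and 164448 to 175147 in the labelled libraries. Of 8 bipolar markers 7 were called lower, and Grm6, Vsx1 and Bhlhe23 were at 0 in a library. Of 13 progenitor markers 5 were called higher and 1 lower, with sums of 250334 and 273225, then 349373 to 399683. Microglial markers, 0 of 7 called, summed to 2368 and 7748, then 330 to 3071, with Csf1r and Tmem119 at 0 in a library. Müller glial markers had 1 called higher and 4 lower of 7, amacrine and horizontal markers 2 lower of 8, ganglion cell markers 0 of 7 and endothelial and mural markers 1 in each direction of 7. In such bulk samples fewer cells of a type and less RNA per cell cannot be told apart, and the part of these changes in the values of the 35 genes was not tested.

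Set against the mean log2 level of the 26 cell cycle genes in the same library, members picked with fold changes known differed. Fignl1 lay at -1.34 and -1.65 relative to that mean in control and at -0.76, -0.61 and -0.31 in the labelled libraries, closer to it in all 3. Brca1 was -2.06 and -1.81, then -2.04, -2.28 and -2.33, with overlap. Rad51ap1 also overlapped, at -1.31 and -1.19, then -0.85, -1.04 and -1.26. Eme1 went from -3.65 and -4.29 to -3.63, -3.00 and -3.55. Fancl, called higher on its own, went from 0.41 and 0.61 to -0.84, -1.14 and -0.70. Fance went from 0.24 and 0.21 to -3.07, -3.44 and -2.60, and Mus81 from -0.20 and -0.13 to -3.15, -2.98 and -1.96. Fignl1 had been taken in as strongly raised in this comparison, so its position is a description only.

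**Figure D4:**
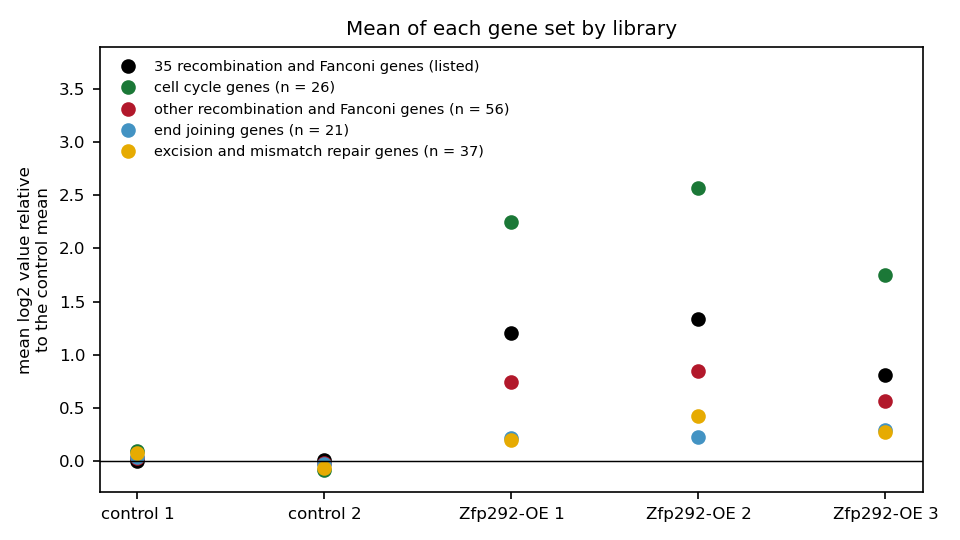
Mean log2 value of each gene list relative to its control mean in each of the 5 libraries, 1 point per list and library. The 35 genes (black) reach 1.20, 1.34 and 0.81 in labelled libraries 1, 2 and 3, under the 26 cell cycle genes (green) and above the other repair lists.

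Other genes of recombination and the Fanconi pathway were listed by function, though with earlier results of these data known, as were the lists that follow. Of 56 tested, 26 were called higher, 2 lower and 28 neither (50% called, beside 17.4% of all tested genes), with a median log2 fold change of 0.67. Firrm, of the 58 listed, was not matched, and Atrip fell under the filter. Cenps, a histone-fold partner of FANCM, rose by 1.95 (adjusted p = 0.0011), and Rpa2, a subunit of the complex that coats single-stranded DNA, by 1.59 (adjusted p = 0.0013). Ube2t, the conjugating enzyme that works with FANCL, rose by 2.18 (adjusted p = 0.0013).

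Some Fanconi partner proteins outside the 35 were also called. Faap24, which binds FANCM, rose by 1.04 and Faap20, which binds FANCA, by 0.57. Faap100, which sits with FANCB and FANCL, fell by 1.11, from 2223 and 2800.2 to 778, 1664 and 1195 (adjusted p = 0.042). Recql5, a RecQ helicase, fell by 1.04 (adjusted p = 0.037). Faap24, Faap20, Faap100 and Recql5 were named after their values were seen. All calls in this list were lost without either control library, and 15 genes were called without labelled library 1.

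Repair pathways that do not use a sister template were counted in the same fit. Of 21 end joining genes, 5 were called higher and 0 lower (23.8% called, beside 17.4% of all tested genes), with a median log2 fold change of 0.32. Nhej1, which aligns broken ends for ligation, rose from 712 and 723 to 1618, 1572 and 2104 (adjusted p = 0.0098), and Xrcc6, the smaller Ku subunit, rose by 0.65. Rif1 (0.54) and Shld3 (0.77), which protect ends from resection, also passed. Their adjusted p ranged over the alternatives from 0.0044 to 0.21 and from 0.0105 to 0.225, and neither was called in edgeR or with equal totals. Of 37 genes of excision and mismatch repair, 9 were called higher, 2 lower and 26 neither (29.7% called), with a median of 0.26. The DNA glycosylase Neil3 had 1774 and 1342, then 9123, 13054 and 5222 (adjusted p = 0.0013). Mutyh, a glycosylase acting on oxidised bases, rose by 1.35, the replication ligase Lig1 by 1.42 and Cetn2, a centrin that also takes part in damage recognition, by 0.84. Leaving out any 1 library left 0 to 2 end joining genes and 0 to 7 excision and mismatch repair genes called. Whether the share of calls differs between these lists was not tested.

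The position of the 35 genes was also read, since the choice by name did not use it. They lie on 15 chromosomes, with 7 on chromosome 11. For 12 of them a protein-coding gene starts within 1000 bases on the opposite strand (GENCODE M21), and all 12 neighbours were tested. Of these, 2 were called higher, 0 lower and 10 neither, beside 17.4% of all tested genes. Mrpl27, a mitochondrial ribosomal protein gene whose start lies 197 bases from that of Eme1, had 16759 and 17666, then 22714, 21401 and 18540.1 (log2 fold change 0.27, SE 0.14). Nbr1, 194 bases from Brca1, had 7747 and 9577, then 6521, 7526 and 8483. Emc3, 30 bases from Fancd2, had 17584 and 14839, then 15193, 17499 and 17905. The groups overlapped for Nbr1 and Emc3.

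The 2 neighbours called higher were Smc6, 85 bases from Gen1, and Gas2, 252 bases from Fancf. Smc6, a subunit of the SMC5/6 complex that itself serves recombination, had 10364 and 9934, then 21086, 22876 and 18029 (log2 fold change 1.02, adjusted p = 0.0022). Gas2 rose by 0.76 on the log2 scale (adjusted p = 0.037), while Fancf was not called. In 6 of the 7 pairs whose member was called higher the neighbour was not called, and none was called lower. Eme1 shares 9.04% of its exon bases with Lrrc59 and 3.07% with Mrpl27, and Rmi1 shares 4.36% with Hnrnpk, whose mean value was 222923, all on the opposite strand. Without strand in the counting, reads in those bases cannot be assigned.

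**Figure D5:**
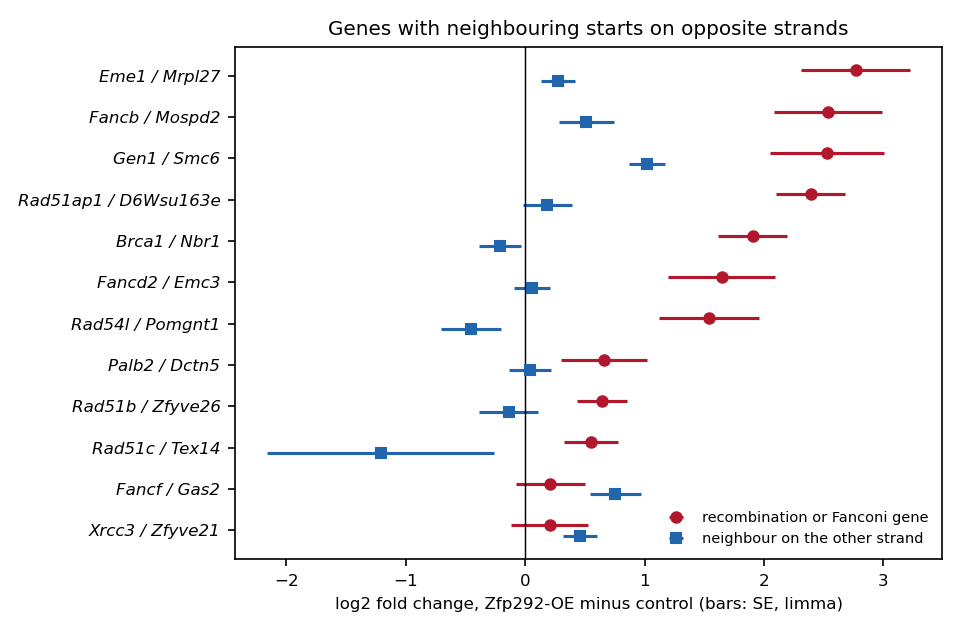
Log2 fold change with its SE for 12 of the 35 genes (red circles) and for the protein-coding gene that starts within 1000 bases on the opposite strand (blue squares). Neighbours range from -1.21 (Tex14) to 1.02 (Smc6), and 10 of 12 were not called.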

How the data were processed

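Per the file headers, the deposited table gives 1 normalised signal per gene and library, with Entrez identifiers and symbols, and holds 0 columns of other samples. The signal is a read count divided by 1 factor per library: 100% of values were whole multiples of the smallest value above 0 (tolerance 1e-06), and the factors equal the size factors that DESeq2 computes from the recovered reads. GRCm38 and mm10 are named, per the submitters' processing notes. Aligner, counter and annotation: not given in the sources used here. Groups follow the labels. For each gene whose mean reached 10, limma 3.58.1 in R 4.3.3 (eBayes with trend) compared log2(value + 1) between the groups. P-values were adjusted by Benjamini and Hochberg over every tested gene, with 0.05 as the threshold. edgeR 4.0.16 (quasi-likelihood) and DESeq2 1.42.0 were run on recovered reads as alternatives. Also tried were TMM scaling, scaling to equal totals, a pseudocount of 0.5 or 10, a filter at 50 or none, the replicate number as a block, and each library left out in turn. Named genes are the 35 members and, of each other list, the 4 called genes with the smallest p. A gene that this rule names is not reported here. Members and lists were chosen with earlier results of these data known. Exon lengths are unions over GENCODE M21 basic transcripts, and gene positions are RefSeq GRCm38.p6 gene spans. Promoter windows have starts of their own. The fit was tested on simulated counts. Intervals on levels cover the spread between libraries only.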

Additional observations from a re-analysis of the deposited data

How the results depend on the processing

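The 5 libraries limit every count, above all the 2 controls. Without one library the counts ranged from 1 to 2352 for all genes (2836 with all libraries), from 0 to 19 for members called higher and from 0 to 1 for members called lower. They ranged from 0 to 25 for the other recombination and Fanconi genes, 0 to 2 for end joining, 0 to 7 for excision and mismatch repair, 0 to 3 for meiotic, 0 to 4 for p53 target and 0 to 26 for cell cycle genes. Each of these counts was lowest without control library 1 and without control library 2. The meiotic count was also 0 without labelled library 1, a fit that called 1657 of all genes. The median log2 fold change of the members stayed between 0.75 and 1.07 in those fits.

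Of the members called higher, 15 of 17 were called in edgeR, after scaling to equal totals (Rad54l and Xrcc2 lost in both) and with no filter (Fancd2 and Rad54l lost), and all 17 in DESeq2, which added 4. End joining counts, 5 as reported, were 3 with equal totals, 3 in edgeR, 8 in DESeq2 and 2 with the replicate block. Excision and mismatch repair gave 7 with the block against 11. The p53 target count of 4 was 2 with no filter, 2 in edgeR and 9 in DESeq2. The cause was not tested. Scaling to equal totals moved the median of all genes from -0.06 to -0.27 and the calls from 1632 higher and 1204 lower to 908 and 1977. Members then had a median of 0.69, with 15 called higher and 1 lower.

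Same-numbered libraries did not deviate together (r = -0.04 and -0.03 across genes). The control deviations mirror each other by construction, so this check cannot decide whether the numbers pair the samples. The replicate block called 20 members higher and 1 lower. In it, labelled library 3 stands alone in its block, so fold changes equal those without that library.

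The sign changed only for members that were not called. Slx4 was at -0.18 with equal totals, -0.030 in edgeR, -0.0022 in DESeq2, -0.057 with the block and between -0.32 and 0.40 without one library. Fancc was at 3.6e-05 with a pseudocount of 10, 0.083 in edgeR, 0.12 in DESeq2, 0.46 with the block and between -0.25 and 0.46 without one library. With equal totals Xrcc3 was at -0.0086, Fancf at -0.0048 and Fancm at -0.023. Without one library Xrcc3 ranged from -0.051 to 0.40 and Fancg from -0.20 to 0.76, at -0.017 without labelled library 2.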

Other observations

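Genes of meiotic recombination, which share steps with the genes above but act in germ cells, were mostly low. Of 27 listed, 21 passed the filter, 2 were called higher (9.52%, near the 10% of all tested genes) and 0 lower, and the median log2 fold change (0.23) and the mean (-0.09) differed in sign. Dmc1, which pairs strands in meiosis, had values of 130 and 212 in control, then 780.4, 623 and 408 (log2 fold change 1.81, limma adjusted p = 0.025, 0.00157 to 0.1645 over the alternatives). Syce2, a synaptonemal complex gene, had 3546 and 3428, then 9428, 8819 and 5048 (adjusted p = 0.018, 0.000235 to 0.2275 over the alternatives). Labelled library 3 was the lowest labelled library for both.

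Targets of p53, which is activated by DNA damage, were counted in the same fit. Of 18 tested, 2 were called higher (11.1%, beside 10% of all tested genes) and 2 lower (beside 7.38%), and the median difference was 0.13 (log2). The Cdk inhibitor Cdkn1a had 2149 and 3248, then 6133, 7074 and 4584 (adjusted p = 0.012, 0.000196 to 0.145 over the alternatives). The receptor Eda2r had 37.1 and 2.31, then 295, 233 and 118 (adjusted p = 0.027). The antiproliferative gene Btg2 fell from 25333 and 22283 to 12225, 11588 and 17887, and the kinase Plk2 fell by 1.06 at an adjusted p of 0.0495. All 4 lost their call without either control library.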
